A study of Gossypium hirsutum with 2 samples.

Results

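The genes described here are upland cotton (Gossypium hirsutum) transcription factor and regulator genes with a GhD53 peak in the promoter, other than AP2/ERF, NAC, WRKY and MYB factors and indeterminate-domain zinc finger genes. The rule was set with earlier results of these data known, but among genes with a promoter peak it used names alone. The authors' family column had to hold an entry without those letters, and the best protein hit could not be an indeterminate-domain protein. This gave 95 genes with 96 peaks, of 156 genes with any family entry and 2111 genes in all, spread over 47 of the authors' families. The letters ERF also occur in mTERF, so 2 mitochondrial termination factor genes (GH_A04G0639 and GH_A05G3225, pileup 5 at each) are not among the members. The families are predictions from sequence, and 19 of the 95 genes had a best hit that was only hypothetical or uncharacterized.

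GhD53 belongs to the D53 family, repressors that hold strigolactone-responsive genes off until the hormone receptor triggers their destruction. Such proteins recruit TOPLESS corepressors and are brought to many promoters by other transcription factors. In Arabidopsis a related protein also binds DNA itself. The assay was DAP-seq: protein expressed in vitro with an affinity tag is incubated with a library of bare genomic fragments, and those it retains are sequenced. The DNA came from fiber, the elongated seed hairs of cotton. There was 1 purified library and 1 input library, and no purification without GhD53, so binding by GhD53 cannot be told apart from other effects of the purification. Naked DNA carries no chromatin and no partner proteins. With 1 library in each group nothing could be tested over replicates, so the values below describe these 2 libraries.

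Each peak carries the authors' own values. Pileup was read as the number of purified fragments stacked over the summit. Fold enrichment was read as the pileup over a local background with 1 added to each, and the background was recovered from both. No peak caller is named, so both readings are assumptions. The authors deposited a longer list of 2183 promoter peaks, used throughout, and a shorter list of 756 peaks from the same libraries. A member in both lists is one that the shorter list also kept, not one found again independently.

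Most of these regulator promoters had shallow peaks. The median pileup was 5 fragments (quartiles 5 and 7), as it was over all peaks (quartiles 5 and 6), and the median fold was 3.73 in both. A fold of 4 or higher was reached by 45 of the 96 peaks, or 46.9% (Wilson 95% interval 37.2 to 56.8), against 39.5% of all peaks. A fold of 5 or higher was reached by 18 (18.8%, 12.2 to 27.7), against 12.0%. The shorter list kept 40 peaks (41.7%, 32.3 to 51.7), against 34.4%. The first and the third interval include the share of all peaks and the second starts just above it; none of these differences was tested.

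Fold and pileup carried nearly the same information here. The background stood at its lowest value, 0.608, under 86 of the 96 peaks, where pileups of 4, 5, 6, 7 and 8 correspond to folds of 3.11, 3.73, 4.35, 4.98 and 5.60. Of the members, 16 had a pileup of 4 (16.7%, against 19.7% of all peaks), 33 of 5 (34.4% against 35.0%), 20 of 6 (20.8% against 20.3%), 9 of 7 and 7 of 8. A pileup of 9 to 20 was reached by 9 members (9.38% against 6.50%) and one above 20 by 2 (2.08% against 5.31%). The last share rests on 2 peaks, and neither difference was tested. If each fragment is counted once, the exact Poisson 95% interval is 1.62 to 11.7 for a pileup of 5 and 3.45 to 15.8 for a pileup of 8, so neighbouring steps do not differ beyond counting error. At q-values up to 0.05 there were 80 member peaks (83.3%), against 79.0% of all peaks, and at q-values up to 1e-05 there were 11 (11.5%), against 10.4%. The 16 above 0.05 were those with a pileup of 4, whose −log10 q was 0.917.

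**Figure D1:**
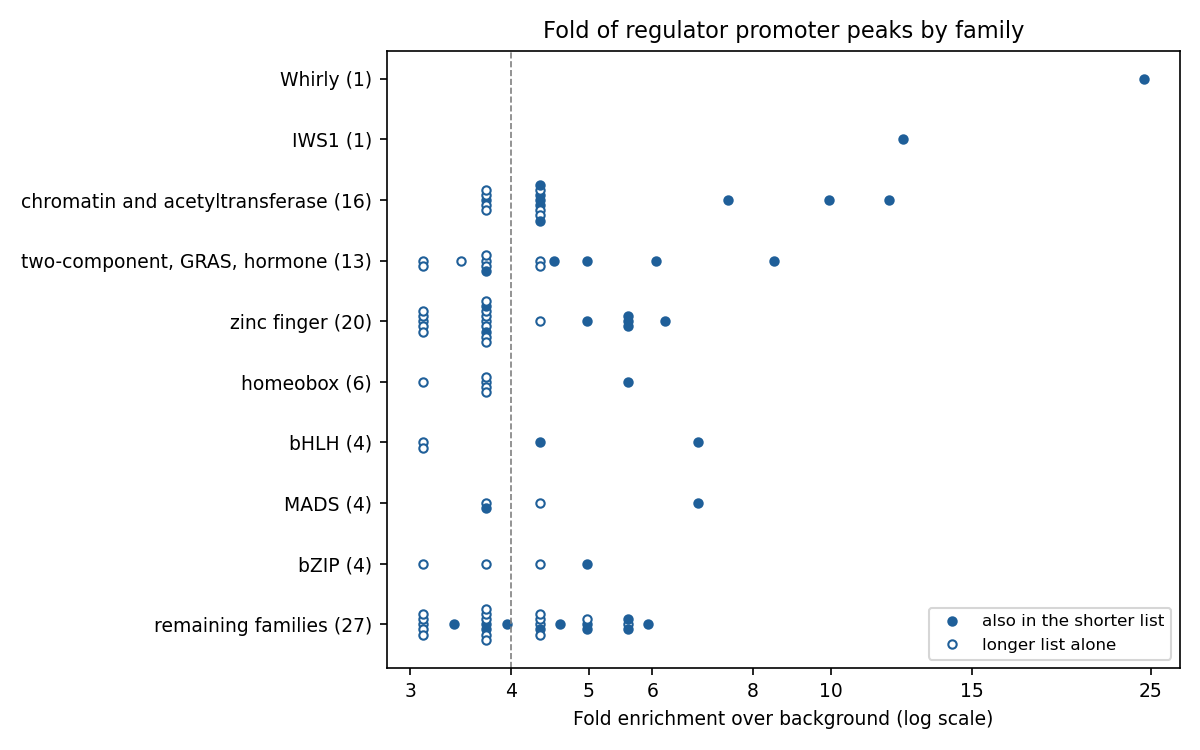
Fold enrichment (log axis) of each of the 96 regulator promoter peaks, grouped by family with the number of peaks in brackets; filled points are also in the shorter list, open points are in the longer list alone, and the dashed line marks a fold of 4. Most points sit at 3.11, 3.73 or 4.35, and the Whirly and IWS1 peaks (24.5 and 12.3) lie to the right, followed by chromatin genes at 11.8 and 9.95.

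The tallest peaks belonged to a Whirly gene and an IWS1-family gene. Whirly proteins are plant single-stranded DNA-binding proteins that act in organelles and in the nucleus. The gene GH_A08G2618, described as a mitochondrial WHY2-like protein, had a 189 bp peak on chromosome A08 (122952026 to 122952214) with a pileup of 111 (exact Poisson 95% interval 91.3 to 134) over a background of 3.57, which is 24.5-fold. It ranked 2 by fold among the 2183 peaks. Its centre lay 630 bp upstream of the start site, and it was the only one of the 96 peaks that the authors also placed in the promoter of a neighbour, GH_A08G2617.

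IWS1-type domains occur in factors that assist elongation by RNA polymerase II. The member of this family, GH_A05G4214, is described as subunit 26c of Mediator, the coactivator that links transcription factors to the polymerase. Its 611 bp peak (A05, 108873241 to 108873851) had the highest pileup of the members, 156 (132 to 182), and ranked 10 by fold. Its background, 11.7, was also the highest among them, so the fold was 12.3, about the same as that of a chromatin gene with a pileup of 18. These 2 peaks made up 31.4% of the summed pileup of the 96. Their Poisson intervals overlap each other but not that of any other member, the next pileup being 18.

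**Figure D2:**
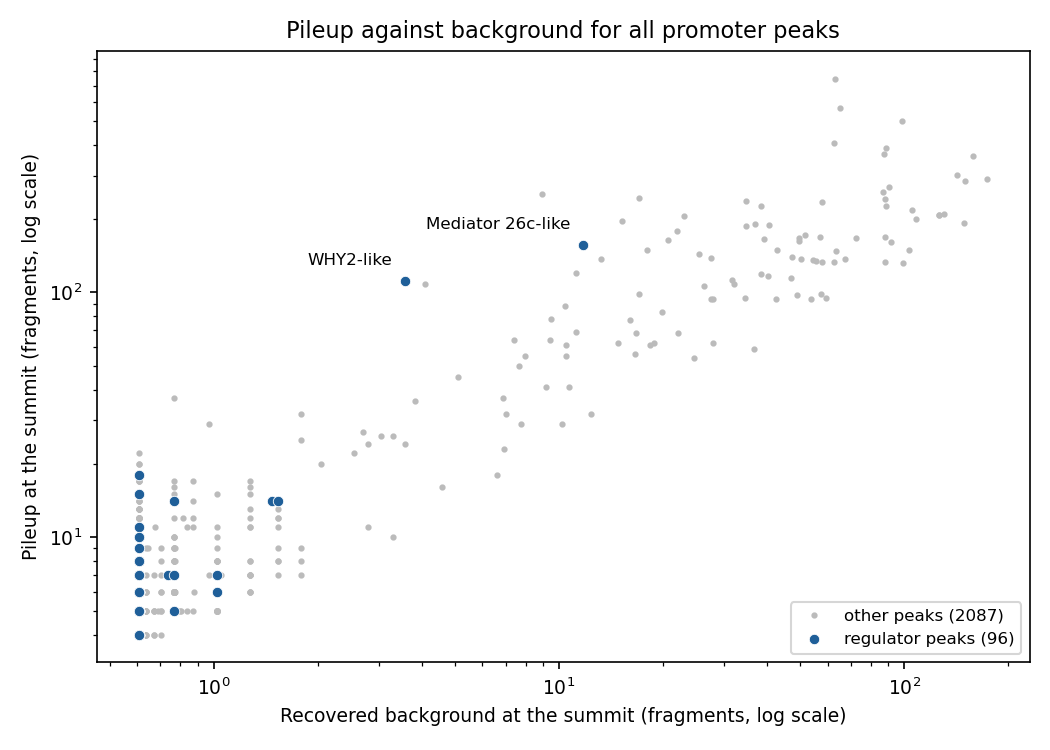
Pileup (fragments, log axis) against the recovered background (log axis) for the 96 regulator peaks in blue and the other 2087 promoter peaks in grey. The WHY2-like and Mediator 26c-like peaks stand at pileups of 111 and 156 over raised backgrounds of 3.57 and 11.7, and nearly all other regulator peaks lie in the column at 0.608.

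Genes of chromatin remodelling, histone modification and acetylation (SNF2, SWI/SNF, Jumonji, HMG, ARID and GNAT families) had 16 peaks at 16 genes. Of these, 11 (68.8%, Wilson interval 44.4 to 85.8) had a fold of 4 or higher, against 39.5% of all peaks. In both lists were 9 (56.2%, 33.2 to 76.9), against 34.4%. The first interval starts above the share of all peaks and the second includes it. The grouping was made after values were seen, so the differences are given as a description. It follows the authors' families. GH_A09G0866, described as chromatin remodeling protein EBS-like (3.73-fold, longer list alone), was therefore counted with the zinc finger genes. So was the other gene of its PHD family, GH_D01G2371 (3.73-fold, both lists). GH_A09G0866 was named after its values were seen. Counting the PHD genes here would lower the share of 68.8%, so that share depends on which families were joined. All 16 stood on the lowest background, as did 84.5% of all peaks. The strongest was GH_A06G1959, described as FLOWERING LOCUS D-like, a histone demethylase relative that promotes flowering in Arabidopsis. It had a pileup of 18 (10.7 to 28.4) and 11.8-fold, 2056 bp upstream of the start site. GH_A06G2062 followed with a pileup of 15 (8.40 to 24.7) and 9.95-fold, 1070 bp upstream. The authors put this gene in the HMG family, but its best hit is uncharacterized and its KEGG entry is a SIAH1-type ubiquitin ligase, so its place among chromatin genes is uncertain.

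The 3 Jumonji genes, a family of histone demethylases, were all in both lists, against 34.4% of all peaks, a difference that was not tested. GH_D10G1796 and GH_D04G1381 had the same best hit, JMJ16, but differed in pileup: 11 (5.49 to 19.7) and 7.46-fold at the first, 6 (2.20 to 13.1) and 4.35-fold at the second. These intervals overlap. Their peaks lay 1462 and 1533 bp upstream. GH_A08G2370 is described as JMJ25-like, the type that removes methylation from histone H3 lysine 9 in Arabidopsis. Its KEGG entry, a ribosomal protein of the small subunit, does not match that description. It also had 4.35-fold, 1175 bp upstream.

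SNF2 genes encode ATP-driven remodellers, and 5 had a peak, 2 of them in both lists, against 34.4% of all peaks. The 2 were GH_D09G1224 (CHROMATIN REMODELING 5-like, 4.35-fold) and GH_A08G2269 (MOM1-like, a gene silencing factor, 3.73-fold). In the longer list alone were GH_D05G2566, which is CLASSY 3-like (RAD54 in KEGG), from the family that guides RNA-directed DNA methylation, and the helicase gene GH_D08G1654, both at 4.35-fold. The ARID-family gene GH_D13G1461 (high mobility group B 10-like) was in both lists at 4.35-fold, and its peak, 329 bp upstream, was the nearest to a start site among the chromatin genes. GH_D09G0249 encodes SSRP1, a subunit of the FACT histone chaperone, and had 4.35-fold in the longer list alone.

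The GNAT acetyltransferase family gave 3 genes whose names do not point to histones. GH_A02G1769 is NAGS2-like, an enzyme of arginine synthesis in the chloroplast, and was in both lists with 4.35-fold over a 343 bp peak. GH_A08G2290 and GH_D05G1202 are both HLS1-like, a regulator of the seedling apical hook in Arabidopsis. Each had a pileup of 5 in the longer list alone, at 1202 and 1865 bp upstream.

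**Figure D3:**
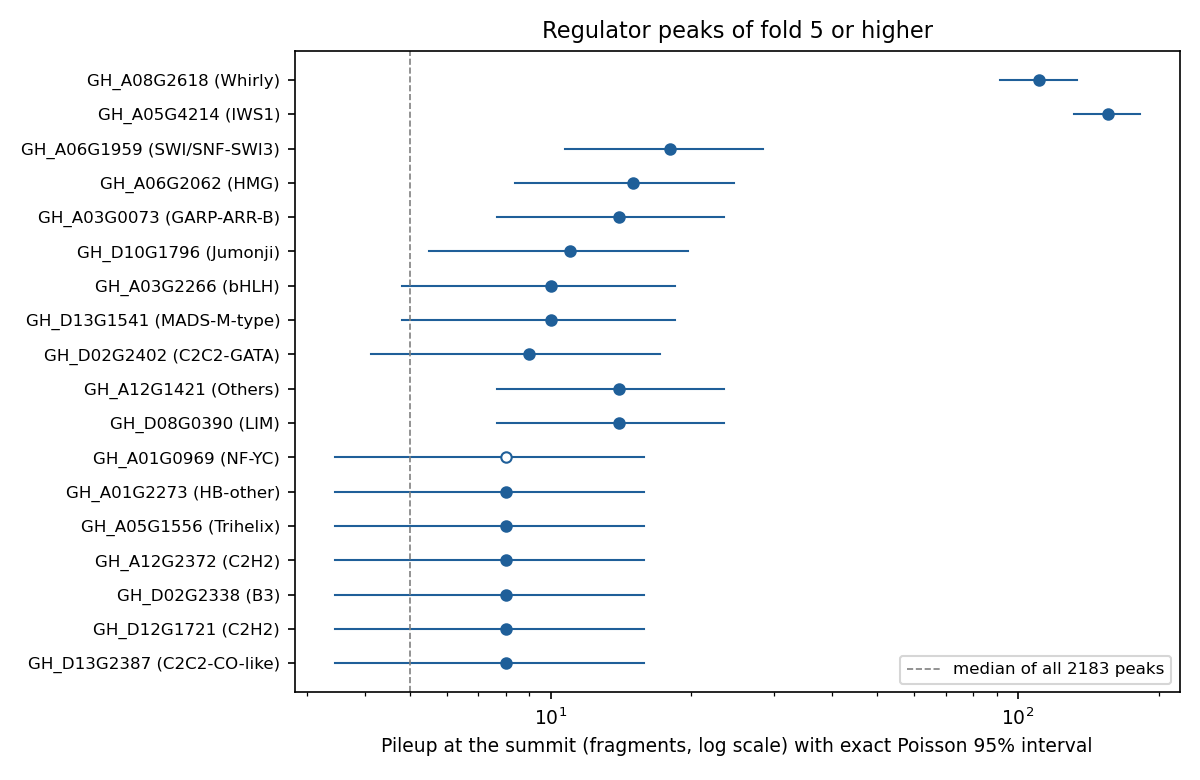
Pileup at the summit (fragments, log axis) with exact Poisson 95% intervals for the 18 regulator peaks of fold 5 or higher, ordered by fold; filled points are also in the shorter list, and the dashed line is the median of all peaks, 5. The intervals of the 2 top genes lie apart from the rest. Those of peaks with a pileup of 8 (3.45 to 15.8), 9 (4.12 to 17.1) or 10 (4.80 to 18.4) include the overall median.

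Two-component, GRAS and other hormone-related families had 13 peaks, 6 (46.2%) with a fold of 4 or higher and 5 (38.5%) in both lists, against 39.5% and 34.4% of all peaks. Type-B response regulators are the transcription factors that end the cytokinin relay. The gene GH_A03G0073, assigned to this family but with a hypothetical protein as best hit, had a pileup of 14 (7.65 to 23.5), 8.50-fold, over a 414 bp peak 1893 bp upstream. GH_A12G1421, a relative of the histidine kinase CKI1, which acts in the female gametophyte of Arabidopsis, also had a pileup of 14, but over a background of 1.47, giving 6.06-fold. Its 742 bp peak was the longest of the members. In the shorter list it was split into 2 peaks with summits 485 bp apart, with pileups of 14 and 11. The histidine kinase 5-like gene GH_D05G0636 (4.35-fold) and the type-A regulator gene GH_D10G2057 (ARR17-like, 3.47-fold over a background of 1.02) were in the longer list alone.

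GRAS proteins include DELLA repressors of gibberellin signalling and SCARECROW-like factors. GH_D05G2781 (scarecrow-like 21, 4.98-fold, 1022 bp upstream) and GH_D10G2550 (scarecrow-like 9, 4.53-fold, 1971 bp upstream) were in both lists, each with a pileup of 7. GH_D12G1428, which has a DELLA entry in KEGG but no informative best hit, had 4.35-fold in the longer list alone. The remaining GRAS gene, GH_A08G2298, is described as nodulation-signaling pathway 2-like. In legumes and rice that protein is needed for strigolactone synthesis. It was chosen for mention after its values were seen, and its peak was at the middle of the range, with a pileup of 5 in the longer list alone, 1090 bp upstream.

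Clock and light regulators were few. Of 3 such genes 1 had a fold of 4 or higher, against 39.5% of all peaks. It was the CONSTANS-like 8 gene GH_D13G2387, in both lists at 5.60-fold and 1618 bp upstream. The pseudo-response regulators are clock components. GH_D04G0848 (PRR37) had a pileup of 5 over a 314 bp peak and was in both lists, and GH_A07G1041 (APRR9) had a pileup of 5 only 258 bp upstream. Auxin response factor 8-like GH_D07G1960 and the jasmonate repressor gene GH_D10G0454 (TIFY 5A-like) had the lowest pileup, 4. The word list of hormone response genes by its wording also takes in both pseudo-response regulator genes. Of its 9 genes 3 had a fold of 4 or higher and 3 were in both lists, 1 of these being PRR37. Over all peaks the shares were 39.5% and 34.4%.

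Zinc finger genes numbered 20, of which 6 (30.0%) had a fold of 4 or higher and 7 (35.0%) were in both lists, against 39.5% and 34.4% of all peaks. The highest was GH_D02G2402, a GATA transcription factor 5-like gene. Its pileup was 9 (4.12 to 17.1) and its fold 6.22, and its peak lay 155 bp upstream, the nearest of the zinc finger genes. Those at 5.60-fold were GH_A12G2372 (ZAT9-like, 1886 bp upstream), the CONSTANS-like gene above and GH_D12G1721 (SHOOT GRAVITROPISM 5-like, 1030 bp upstream). In Arabidopsis SHOOT GRAVITROPISM 5 is itself an indeterminate-domain protein, and the gene is a member here because its best hit is not named so. The CCCH gene GH_A05G0623 had 4.98-fold in both lists, and the other 5 CCCH genes had folds of 3.11 to 3.73 in the longer list alone.

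YABBY factors specify the lower side of leaves. GH_D07G1225 (YABBY 2) was in both lists with a pileup of 5, and GH_A11G0819 (YABBY 1-like) had the lowest pileup, 4. PHD fingers, counted here as zinc fingers, read histone marks. Of the 2 such genes, GH_D01G2371 was in both lists with a pileup of 5. Its best hit is uncharacterized. Of the 6 homeobox genes, 1 was above a fold of 4 and in both lists: GH_A01G2273 (ATHB-22-like, 5.60-fold, 1724 bp upstream). The Wilson interval of this share (16.7%, 3.01 to 56.4) includes the shares of all peaks, 39.5% for the fold and 34.4% for both lists. GH_A10G0308, which is WUSCHEL-related homeobox 9-like, a type that maintains meristems and the early embryo, had a pileup of 5 at 2033 bp upstream. GH_D01G2357, of the HD-ZIP class, had a pileup of 5, and its summit was 39286 bp from that of another HD-ZIP gene with the same pileup. The HAT5-like gene GH_D03G1043 had a pileup of 4 and the nearest homeobox peak, 387 bp upstream.

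The bHLH, MADS and bZIP families had 4 genes each, of which 2 in each family had a fold of 4 or higher. Over all peaks that share was 39.5%, and 34.4% were in both lists. GH_A03G2266 is bHLH121-like, a regulator of iron homeostasis in Arabidopsis. It had a pileup of 10 (4.80 to 18.4) and 6.84-fold over a 232 bp peak 1276 bp upstream, and was in both lists. GH_A13G1421 (bHLH81-like) was in both lists at 4.35-fold, and the UNE12-like gene GH_A11G2790 had a pileup of 4.

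MADS factors control floral organs and gametophytes. GH_D13G1541 and GH_A08G2857 are both described as AGL80, a factor of the central cell in Arabidopsis, and had pileups of 10 and 6 (6.84-fold and 4.35-fold). The first was in both lists and the second was not, and their Poisson intervals (4.80 to 18.4 and 2.20 to 13.1) overlap. GH_D07G1990, which is SEPALLATA 1-like, had the peak nearest to a start site of all members, 41 bp upstream, with a pileup of 5. GH_D13G2043, a MADS gene without an informative best hit, had the next nearest, 141 bp upstream, also with a pileup of 5, and was in both lists.

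Among bZIP genes only GH_A01G0686 was in both lists, with 4.98-fold 1594 bp upstream, and its best hit is uncharacterized. GH_D13G0993 had 4.35-fold, but its best hit, clumping factor A-like, is not a transcription factor name. GH_D01G0382, a TGA factor in KEGG (TGA factors act in salicylic acid responses), had a pileup of 5 at 1926 bp upstream. The abscisic acid factor gene GH_A03G1369 (ABI5 type), chosen after its values were seen, had a pileup of 4.

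The remaining families had 27 peaks at 26 genes, 13 (48.1%) with a fold of 4 or higher and 11 (40.7%) in both lists, against 39.5% and 34.4% of all peaks. The LIM gene GH_D08G0390, PLIM2b-like and thus related to actin-bundling proteins, had the highest fold of these, 5.93. Its pileup was 14 (7.65 to 23.5) over a background of 1.53, with a peak of only 138 bp at 665 bp upstream. Those at 5.60-fold were the B3-domain gene GH_D02G2338 (1949 bp upstream), the trihelix gene GH_A05G1556 (1740 bp upstream) and GH_A01G0969, an NF-Y subunit C-2-like gene (1891 bp upstream). The last had the highest fold of the members that the shorter list did not keep. NF-Y factors bind CCAAT boxes as trimers, and a B subunit gene, GH_A10G1780, was in both lists at 4.98-fold, 1843 bp upstream.

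Heat stress factors activate chaperone genes, and 3 of these genes had 4 peaks, with 0 in both lists. The Wilson interval of that share, 0 to 49%, includes the 34.4% of all peaks. GH_D08G0699 (A-7a-like, though its KEGG entry is a dioxygenase) was the only member with 2 peaks. They had pileups of 7 and 6 and lay 1849 and 1140 bp upstream, with summits 797 bp apart. The neighbouring gene GH_D08G0698 is an indeterminate-domain gene with its own peak, 26168 bp from the nearer of these. The other heat stress genes, GH_D09G0866 (B-2a-like, 485 bp upstream) and GH_D10G0370 (A-4a-like, 1302 bp upstream), had a pileup of 5.

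Of the other B3-domain genes, GH_D04G1971 was in both lists at 4.35-fold, and GH_A07G0395 (REM5-like) had 4.35-fold at 342 bp upstream. LOB-domain factors set organ boundaries and, in some cases, nitrogen responses. Among 4 such genes GH_A05G1588 (LOB domain 6-like) was in both lists with a pileup of 5 and 3.40-fold, GH_D12G2831 had 4.35-fold, and GH_D06G0218 and GH_D11G0535 (LOB domain 39-like and 38-like) had the lowest pileup, 4. The 2 CPP genes, relatives of the cell division regulator TSO1, were GH_D09G0160 (4.35-fold) and GH_A02G1264 (3.73-fold, in both lists). The cold-shock gene GH_A11G1827 (4.61-fold) and the GeBP gene GH_A13G0194 (3.73-fold), described as mediator-associated, were also in both lists.

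The word list of strigolactone and branching genes matched 2 SPL genes and 1 TCP gene. Some SPL factors restrain shoot branching, and a rice SPL factor is a known partner of D53. Of the SPL genes, GH_A11G0398 (13A) had a pileup of 7 (2.81 to 14.4) and GH_A12G1118 (SPL7, which in Arabidopsis governs copper responses) a pileup of 4 (1.09 to 10.2). The TCP gene GH_D12G2026 (TCP17-like) had a pileup of 7 over a background of 1.02, 3.96-fold, 241 bp upstream. TCP17 is of the class known from leaf development, not of the branching class. Of the 3 genes in this list 1 had a fold of 4 or higher and 2 were in both lists. Over all peaks the shares were 39.5% and 34.4%.

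Like the other word lists, those that follow were matched on the best hit or the KEGG entry, and 39.5% of all peaks had a fold of 4 or higher and 34.4% were in both lists. Meristem, flower and embryo genes had 2 of 9 with a fold of 4 or higher and 3 in both lists, heat stress genes 2 of 4 peaks and 0, and transcription machinery and chromatin genes 3 of 4 and 3. The last list holds the Whirly and Mediator 26c-like genes already described, which its words name. It was written with earlier results known and matched none of the Jumonji, HMG and ARID genes. Its shares therefore do not describe the chromatin group. No member matched the list of fiber and epidermis regulators, in which HD-ZIP genes such as HOX3 stood. At this depth a gene without a peak was not shown to be unbound. The 25 genes outside the naming rule had pileups of 4 to 6 and folds of 3.11 to 4.35, and by that rule none was in both lists. Among them was GH_D01G0501, in the authors' B3 family but with a best hit described as a protein with both an AP2/ERF and a B3 domain. It was the only member whose peak lay downstream of its own start site (460 bp), in the promoter of a neighbour.

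The peaks lay far upstream more often than near the start site. The median distance was −1347 bp (quartiles −1626 and −930), against −1178 bp over all peaks (quartiles −1604 and −710). The 500 bp nearest to the start site held 11 of the 96 peaks (11.5%, Wilson 95% interval 6.52 to 19.4), against 13.4% (12.0 to 14.9) of the 2087 other peaks. The farthest bin, 1500 to 2000 bp, held 37 (38.5%, 29.4 to 48.5), against 29.8% (27.9 to 31.8). These intervals overlap.

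The members that the shorter list kept stood far upstream. Of those 40 peaks 22 (55.0%, 39.8 to 69.3) lay 1500 to 2000 bp upstream, against 34.1% (30.7 to 37.7) of the 712 other peaks in both lists, and these intervals do not overlap. Measured on the shorter list's own peaks, however, it was 21 of 41 members (51.2%, 36.5 to 65.7) against 35.8% (32.5 to 39.3) of all 756, and those intervals overlap. Of the 56 members in the longer list alone it was 15 (26.8%, 17.0 to 39.6), against 27.6% (25.3 to 30.0). The difference was not tested, and it was one of several bins compared. Members in both lists also had longer peaks, a median of 207 bp against 165 bp, as did other genes (219 against 158 bp). In 39 of the 40 the peak that overlapped most in the shorter list had the same summit, and its median length was 169 bp. The exception was the split peak of the CKI1-like gene.

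**Figure D4:**
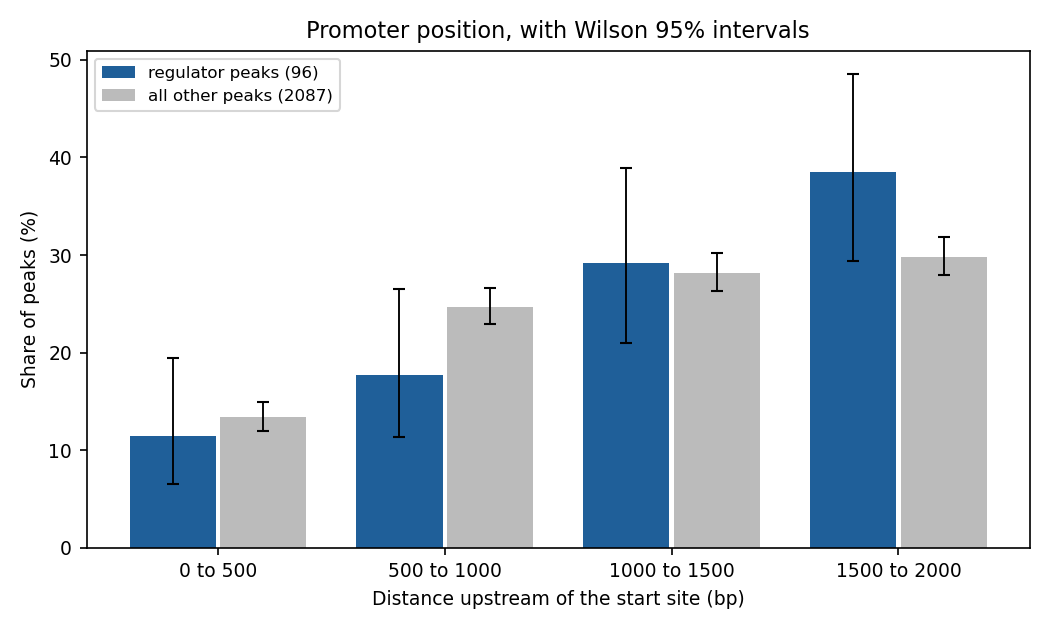
Share of peaks (%) in each 500 bp of promoter upstream of the start site, for the 96 regulator peaks (blue) and the 2087 other peaks (grey), with Wilson 95% intervals as error bars. The regulator share rises from 11.5% nearest the start site to 38.5% at 1500 to 2000 bp, and the intervals of the 2 groups overlap in each bin.

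**Figure D5:**
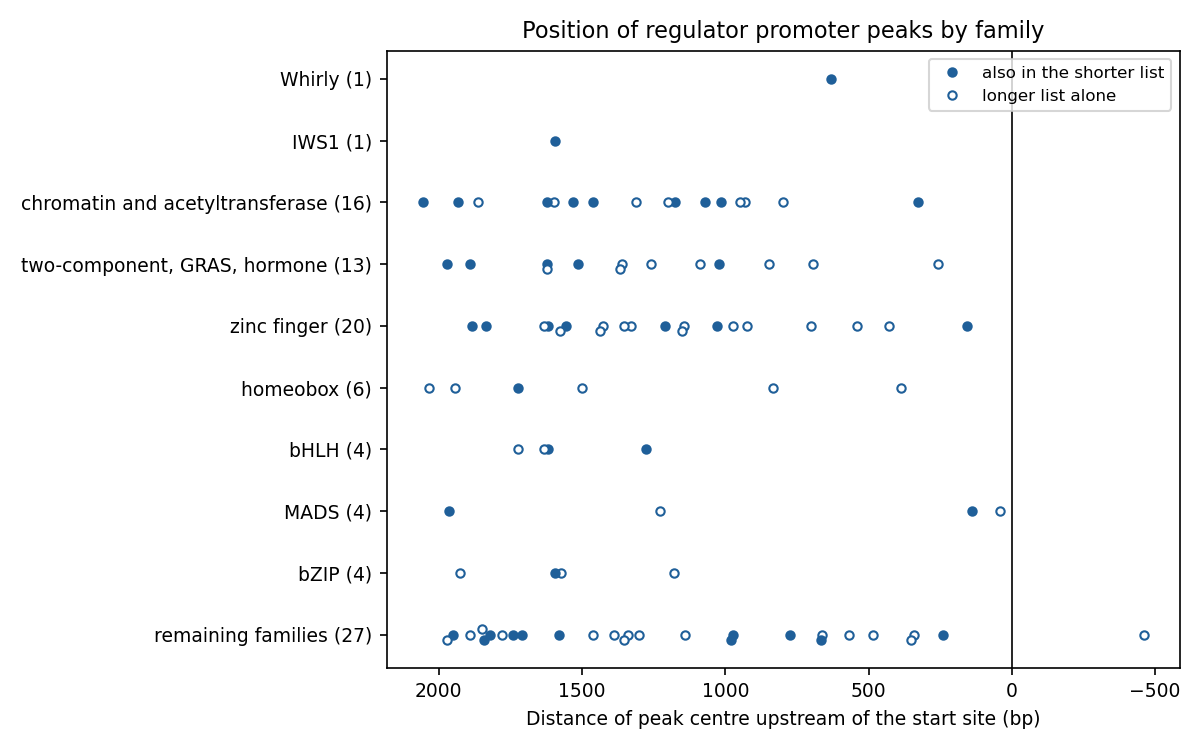
Distance (bp) of each regulator peak's centre upstream of the gene's start site, grouped by family with the number of peaks in brackets; filled points are also in the shorter list and the vertical line is the start site. The MADS points are split between 41 and 141 bp on one side and 1229 and 1963 bp on the other, and 1 point among the remaining families lies 460 bp downstream.

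Families differed in position without a clear order, since most held few peaks. The bHLH peaks lay between 1276 and 1724 bp upstream and the bZIP peaks between 1178 and 1926 bp, while the MADS peaks ran from 41 to 1963 bp and the zinc finger peaks from 155 to 1886 bp. The 11 peaks nearest to a start site came from 11 genes: the MADS, GATA, TCP, APRR9-like, ARID, REM5-like, LOB domain 39-like, HAT5-like and B-2a-like genes given above, and a DOF5.4-like gene, GH_A07G0659, named after its values were seen. Of these 11, 4 were in both lists, against 34.4% of all peaks.

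Of the members, 39 genes lay on the A subgenome of this tetraploid (41.1%, Wilson 95% interval 31.7 to 51.1) and 56 on the D subgenome, against 49.5% on A over all genes. The interval includes an even split. Among members in both lists 22 of 40 (55.0%, 39.8 to 69.3) were on A, and among those in the longer list alone 17 of 55 (30.9%, 20.3 to 44.0), where other genes had 50.5% and 49.9%. The intervals of both member shares overlap, while that of the members in the longer list alone lies below that of other genes there (47.3 to 52.6). This difference was not tested. Members lay on 25 of the 26 chromosomes, with at most 7 genes on one and none on A04. Among genes with an informative best hit, 4 pairs shared a description, among them the AGL80, HLS1 and JMJ16 pairs, and 0 of these were A and D genes on same-numbered chromosomes.

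Beside the AP2/ERF, NAC, WRKY and MYB genes, which had 56 peaks, the members had the same median fold and pileup but reached higher maxima. The highest fold was 6.22 and the highest pileup 9 in those 4 families, against 24.5 and 156 here. Such maxima are not particular to the members: the indeterminate-domain genes reached 21.5-fold with a pileup of 108, and genes without a family entry 25.5-fold and a pileup of 748. A fold of 5 or higher was reached by 2 of their 56 peaks (3.57%, Wilson 95% interval 0.985 to 12.1), against 18 of 96 (18.8%, 12.2 to 27.7). The first interval ends just below the start of the second, and the difference was not tested. The shorter list kept 17 of the 56 (30.4%, 19.9 to 43.3), against 41.7% of the members, and those intervals overlap.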

How the data were processed

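One purified and 1 input library were compared by the authors. Per the submitters' processing notes, deepTools 2.5.4, BWA and ChIPseeker were among the tools. Neither a peak caller nor a genome build is named, so coordinates are those of the files. Per the file headers, the authors deposited for each peak a pileup signal, a fold ratio over background and −log10 p and q-values, with gene, family and distance. Depth is known only as the pileup at each peak. Peak sequences were not used here.

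Background was recovered as (pileup + 1) / fold − 1. Lists were compared by 1 bp overlap. Shares have Wilson 95% intervals and pileups exact Poisson 95% intervals (scipy 1.17.1), which cover counting error only. Procedures were tested on simulated data.

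Members and lists were chosen with earlier results of these data known. Named genes were those in both lists, those with a pileup above 20, and A and D pairs. Families with 3 or more genes gave their 3 strongest and the nearest. Smaller families gave genes with a fold of 4 or higher. Matches to 7 word lists in the best hit or KEGG entry were also named. A match had no letter directly before or after it, but digits could follow, as in WHY2. The lists were branching, fiber and epidermis, light and clock, hormone response, heat stress, meristem and flower, transcription machinery and chromatin. The chromatin, hormone-related and remaining groups join families of the authors' column and were formed after the data were seen.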

Additional observations from a re-analysis of the deposited data

How the results depend on the processing

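Of 28 alternative settings over 7 summary values, 21 stayed within the 95% interval of the value reported and 7 moved beyond it. A threshold of fold 5 in place of 4 gave 18.8% of the peaks. In the shorter list 78.0% of the 41 member peaks had a fold of 4 or higher, the median fold was 4.98, the median pileup 7, the median distance −1531 bp and the A share of genes 55.0%. That list starts at a higher pileup. At a q-value of 1e-05 or lower the median fold was 7.46, a stricter set by construction. Other overlap rules, genes in place of peaks, recomputed distances and adding the 2 mTERF genes (chosen after seeing the data) stayed within the intervals. No paired analysis was possible because each group had 1 library. Depth limits the fold: 1 fragment more or less moves most peaks by a whole step.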
